A study of Mus musculus with 4 samples.

Results

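Genes of protein folding in the endoplasmic reticulum (ER) and of the unfolded protein response were followed in mouse brain cortex. The set held 35 listed genes, each matched by its symbol to 1 row, and the 33 whose mean over the 4 libraries reached 50 normalised counts were compared. They are 33 of 13550 genes at or above that mean, out of 39179 in the tables. The 2 listed genes below it were Derl3, with a mean of 32.7 normalised counts, and Trib3, with 15.3. The lowest member inside the limit was Chac1, with a mean of 131.

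RNA came from the brain cortex of mice with a knockout of BK, the calcium- and voltage-gated potassium channel, and of wildtype littermates, all F1 animals of C57Bl6/J x Sv129 background. In each genotype the animals were kept awake by gentle handling for 4 h from light onset (SD) or left undisturbed (baseline, BL), and all tissue was taken at ZT4, which is 4 h after light onset. Total RNA was sequenced as 1 library a group, each made from 4 pooled animals. They are called WT BL and WT SD in the wildtype littermates, and KO BL and KO SD in the knockout. No group had a replicate, so differences between libraries have no replicate check, and differences between animals within a pool were not measured. The labels give neither the age nor the sex of the animals, nor the deleted part of Kcnma1, the gene of the BK pore. In bulk tissue, fewer cells of a type and less RNA per cell cannot be told apart.

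The ER folds and ships membrane and secreted proteins. When unfolded proteins build up there, the sensors IRE1 (gene Ern1), ATF6 and PERK start the unfolded protein response. IRE1 splices Xbp1 RNA, ATF6 is cut to release a transcription factor, and PERK slows translation while favouring the translation of ATF4. The first pair of branches is known to raise chaperones and the machinery that removes misfolded proteins, and ATF4 to raise genes of amino acid supply, Ddit3 and feedback genes such as Ppp1r15a. In rodent cortex, sleep loss is known to raise Hspa5, which codes for the chaperone BiP.

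Many of these genes carry a short promoter element, the ER stress response element (ERSE), read by ATF6 and XBP1 together with the factor NF-Y. Promoters were taken from RefSeq (GRCm38.p6) as 250 bases before to 50 after the gene start, and 30 of the 35 listed genes had an entry. Hyou1, Derl1, Atf6, Manf and Sec61a1 had none. The motif, CCAAT and CCACG with 9 bases of any kind between them, searched on both strands, was found in 9 of the 30 genes, against 0.119% of 32851 promoters of all genes. The element was first described in promoters of this kind, so its share among them is background and not a result of these libraries. The promoter of Hspa5 is shown because it holds the element in its textbook form. It lies on the plus strand at chr2:34771840-34772139, and capitals mark the fixed letters of the motif, which starts 65 bases before the RefSeq gene start. The deposited coordinates start Hspa5 upstream of the motif, at base 34771970.
Hspa5 promoter: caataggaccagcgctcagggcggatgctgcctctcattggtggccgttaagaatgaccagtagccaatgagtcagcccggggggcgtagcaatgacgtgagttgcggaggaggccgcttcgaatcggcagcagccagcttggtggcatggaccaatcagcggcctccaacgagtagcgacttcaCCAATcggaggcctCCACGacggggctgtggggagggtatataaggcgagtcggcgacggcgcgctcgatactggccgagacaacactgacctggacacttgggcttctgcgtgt
The matches in the other compared members follow, each read in the direction of the motif with 4 flanking bases, so that the fixed letters in capitals can be set against one another. Hsp90b1 holds a pair of them.
Canx: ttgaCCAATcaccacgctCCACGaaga
Calr: tgggCCAATgagggtcgaCCACGcgtt
Creld2: tggaCCAATtgaggctcgCCACGagaa
Dnajc3: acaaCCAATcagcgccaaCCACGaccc
Hsp90b1: ctcaCCAATcgtgcctcaCCACGcact
Hsp90b1: aagcCCAATcgcaaggagCCACGcttc
Pdia6: gagaCCAATgaaaggcggCCACGgcgt
Syvn1: gcaaCCAATcggcggtagCCACGggaa
Derl3 holds a match as well. The related motif ERSE-II, ATTGG and CCACG with 1 base of any kind between them, was found in Herpud1 and Dnajb11, against 0.0365% of all promoters.
Herpud1: gctgATTGGgCCACGttgg
Dnajb11: ggcgATTGGcCCACGcctg
The letters TGATGNAA, the core read by ATF4 with C/EBP factors, were found in Asns, Chac1, Trib3 and Herpud1, against 3.97% of all promoters. The matches of Asns and Chac1 are shown because both genes are counted among the ATF4 outputs.
Asns: cacaTGATGaAActtc
Chac1: ggagTGATGcAAcggc
The letters TGACGTGG, read by XBP1 and ATF6, were in none of the 30 genes, against 0.676% of all promoters. A match is a run of letters in this window and shows no binding.

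Values are normalised counts, which are estimated reads per gene divided by 1 factor for each library. The libraries held an estimated 27.7 to 42.0 M reads, and every compared member had at least 97 estimated reads in each. Differences between libraries are differences of log2(value + 1), and 1.5-fold or more (0.58 on that scale) made a gene count as higher or lower. Intervals are exact binomial 95% intervals of the ratio of reads, which cover counting error only. The libraries also differed along GC content and transcript width over all genes. A corrected value is one from which both trends were removed by a loess fit in each library. WT SD stood apart over all genes, with Pearson correlations of 0.877 to 0.911 to the others against 0.956 to 0.972 among those. Neuronal markers (Snap25, Slc17a7 and others) and the cortical layer marker Tbr1 were read in all libraries, none of them at 0. Kcnma1 stood at 614 and 177 in WT BL and WT SD, and at 447 and 491 in KO BL and KO SD, so its level did not separate the genotypes.

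Levels spanned a wide range within the set. Per kb of transcript width, the highest mean levels were those of Calr (13713 normalised counts per kb), Hspa5 (11234), Hsp90b1 (9803), Pdia3 (9080) and Canx (6556), the abundant resident chaperones and an isomerase. The lowest compared were Chac1 (80.3 per kb), the sensor Ern1 (91.2) and the stress-induced Sesn2 (100.3). By deposited values the steadiest member was Calr, a calcium-binding lectin chaperone, at 15120 and 16050 normalised counts in WT BL and WT SD, and at 16690 and 16620 in KO BL and KO SD. Its highest library was 1.10 times its lowest. The ratio of highest to lowest library reached 4.65 for Ddit3, 4.24 for Sdf2l1, 4.02 for Sec61b and 3.79 for Creld2, and in these 4 genes WT SD was the highest library and WT BL the lowest.

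**Figure D1:**
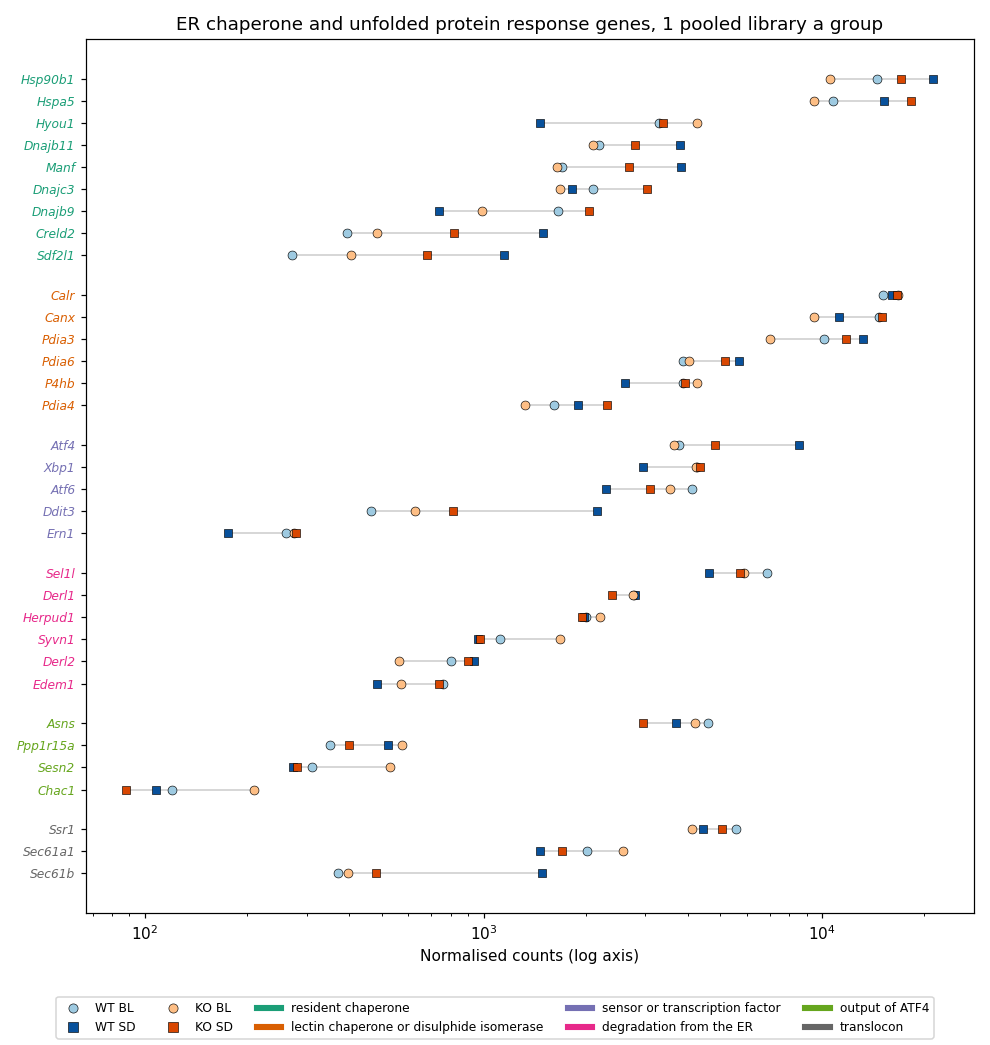
Normalised counts (log axis) of the 33 compared genes in the 4 pooled libraries, 1 point a library, with genes grouped and coloured by role and a grey line from lowest to highest. Squares are sleep-deprived and circles baseline pools; Sdf2l1, Creld2 and Manf have both squares above both circles, while the 4 points of Calr nearly coincide.

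Sleep deprivation was asked about in 2 pairs of libraries that share none, WT SD over WT BL and KO SD over KO BL. The members higher in both were Sdf2l1, Creld2 and Manf, small resident chaperones and cofactors. Sdf2l1, a cofactor that assists BiP and its J-protein partners, stood at 271 and 1150 in WT BL and WT SD, and at 407 and 679.8 in KO BL and KO SD. It was 2.08 higher on the log2 scale in the wildtype pair (counting interval 1.88 to 2.30) and 0.74 higher in the knockout pair (0.55 to 0.93). After the correction the same differences were 1.37 and 1.18. Creld2, an ER-resident factor with disulphide isomerase activity, stood at 395 and 1498 in WT BL and WT SD, and at 484 and 819.5 in KO BL and KO SD. Its differences were 1.92 (1.75 to 2.10) and 0.76 (0.59 to 0.93), and 1.58 and 1.13 after the correction. Both sleep-deprived pools lay above both baseline pools for these genes. Manf, a secreted ER factor with neurotrophic activity, stood at 1707 and 3819 in WT BL and WT SD, and at 1651 and 2690 in KO BL and KO SD. It was 1.16 and 0.70 higher in the pairs, and 0.54 and 0.52 after the correction, which is under 1.5-fold in both.

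In all, 3 of the 33 members were higher in both pairs, against 3.76% of all genes compared, and 0 were lower in both, against 4.15%. By corrected values 4 were higher in both, Sdf2l1, Creld2, the isomerase gene Pdia4 and the transcription factor gene Atf4, against 3.25% of all genes. Only the asparagine synthetase gene Asns was then lower in both, against 2.68%. Of the members 23 had the same sign in both pairs, 13 above and 10 below 0, which is 69.7% of them against 48.1% of all genes. By corrected values the shares were 72.7% and 61.8%. By deposited values, each of the 13 members above 0 had both sleep-deprived pools above both baseline pools. Those below 0 had both sleep-deprived pools below both baseline pools, except Hyou1 and P4hb. The share of all genes with either order was not counted. In an additive limma fit over all 13550 genes, with genotype as a term and 1 residual degree of freedom, 0 members had an adjusted p (Benjamini-Hochberg) under 0.05, against 0.244% of all genes higher and 0.509% lower. At an unadjusted p under 0.05 the members numbered 4 (Sdf2l1, Creld2, Ddit3 and Sec61b), and 830 of all genes. The sleep-deprivation estimate of Sdf2l1 was 1.41 with a standard error of 0.54 (limma adjusted p = 0.385), that of Creld2 1.34 with a standard error of 0.53 (limma adjusted p = 0.440). With corrected values 8 members had an unadjusted p under 0.05, and 1581 of all genes, while 0 members had an adjusted one, against 0.00738% of all genes higher and 0.0148% lower. The lowest limma adjusted p among them was 0.393.

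**Figure D2:**
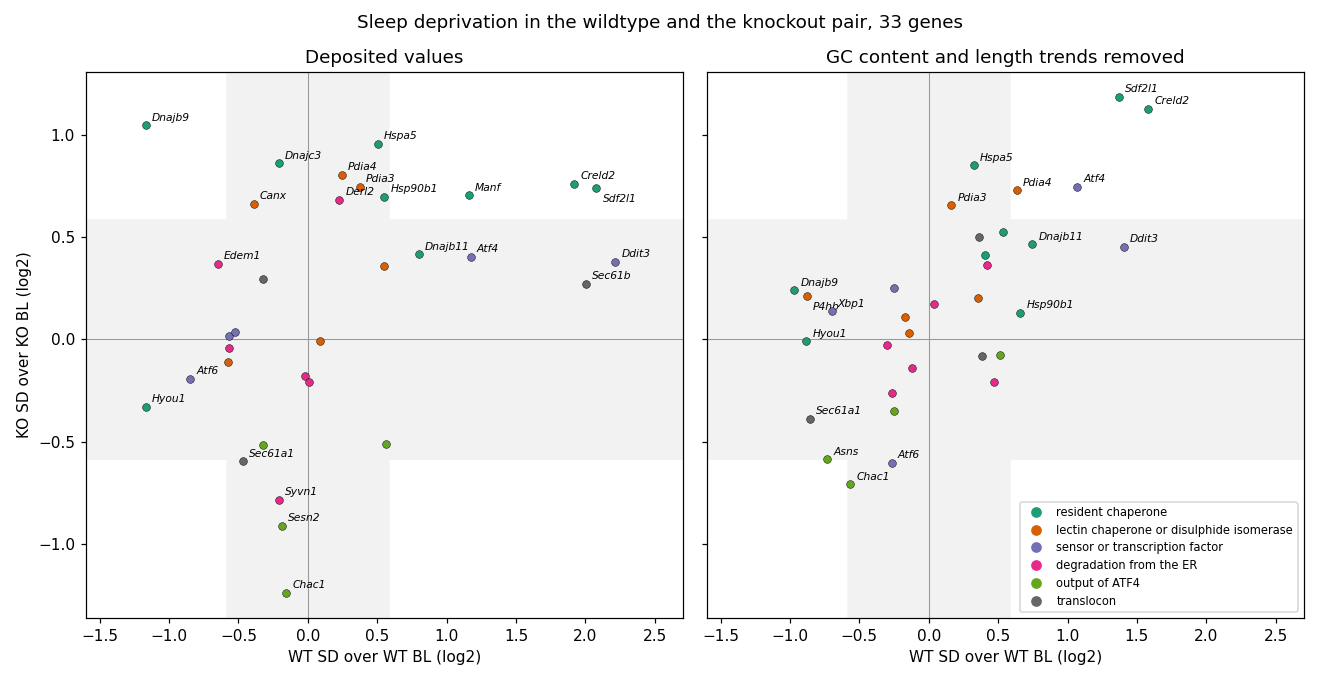
Log2 difference of sleep-deprived over baseline pools for the 33 genes, wildtype pair on the horizontal and knockout pair on the vertical axis, from deposited values (left) and with GC content and length trends removed (right). Colours are roles, grey bands mark differences under 1.5-fold, and labelled genes pass it in at least 1 pair; Sdf2l1 and Creld2 lie in the upper right corner of both panels, and Dnajb9 leaves the upper left corner after the correction.

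In the wildtype pair 7 members were higher, against 24.5% of all genes compared, and 4 lower, against 24.1%. Their median difference was -0.02, and that of all genes -0.04. With each library scaled to the same total, 7 were higher and 9 lower. In the knockout pair 11 members were higher, against 16.2% of all genes, and 4 lower, against 16.4%, with a median of 0.29 and one of -0.04 over all genes. With the same totals these became 10 and 6. Shares over all genes were not counted at the same totals in either pair. At these totals the all-gene median was -0.20 in the wildtype pair and -0.12 in the knockout pair. By corrected values 7 members were higher and 6 lower in the wildtype pair, against 18.5% and 18.2%. In the knockout pair 6 were then higher and 3 lower, against 7.79% and 5.34%. As shares, the members lower in the wildtype pair were 12.1% and those higher 21.2%, both below the shares over all genes. After the correction those lower were 18.2%, the share over all genes, and those higher 21.2%, above its 18.5%. Those higher in the knockout pair were 33.3%, and 18.2% after the correction, both above them.

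Of the resident chaperones, 7 of 9 were higher in the knockout pair, against 16.2% of all genes, and 4 of 9 in the wildtype pair, against 24.5%. In the latter 2 were lower, Hyou1 and Dnajb9, against 24.1%. The medians were 0.74 and 0.55. After the correction 3 of 9 were higher in the knockout pair, against 7.79%, and 4 of 9 in the wildtype pair, against 18.5%, with medians of 0.47 and 0.54. Hspa5, which codes for BiP, the Hsp70 of the ER and keeper of the sensors, stood at 10740 and 15230 in WT BL and WT SD, and at 9435 and 18300 in KO BL and KO SD. It was 0.96 higher in the knockout pair (0.92 to 0.99) and 0.85 after the correction. In the wildtype pair it was 0.50 higher (0.47 to 0.54), short of 1.5-fold, and 0.33 after the correction. Both sleep-deprived pools thus held more Hspa5 than both baseline pools. Hsp90b1, the Hsp90 of the ER (GRP94), stood at 14500 and 21250 in WT BL and WT SD, and at 10560 and 17120 in KO BL and KO SD, again with both sleep-deprived pools on top. Its difference was 0.70 in the knockout pair, but 0.13 after the correction, and 0.55 in the wildtype pair, 0.66 after it. Dnajb11, a J-protein that brings clients to BiP, stood at 2190 and 3812 in the wildtype pair (0.80) and at 2100 and 2800 in the knockout pair (0.41). After the correction these were 0.74 and 0.47.

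Dnajb9, a J-protein that holds IRE1 inactive through BiP, went opposite ways in the pairs. It stood at 1654 and 736 in WT BL and WT SD, and at 990.4 and 2044 in KO BL and KO SD. It differed by -1.17 in the wildtype pair (-1.30 to -1.03) and by 1.04 in the knockout pair (0.93 to 1.16). The sleep-deprived pools were its lowest and its highest library. It was the 1 member past 1.5-fold in opposite directions with lower values in wildtype, as were 3.21% of all genes, and 0 members went the other way, against 3.91%. After the correction its differences were -0.97 and 0.24, and 0 members were opposite in either sense, against 0.731% and 0.325% of all genes. Hyou1, a large Hsp70-like exchange factor for BiP, stood at 3292 and 1464 in WT BL and WT SD, and at 4266 and 3396 in KO BL and KO SD. It differed by -1.17 in the wildtype pair, -0.88 after the correction, and by -0.33 and -0.01 in the knockout pair. WT SD alone lay far below the other libraries for this gene. Dnajc3 (P58IPK), a J-protein and inhibitor of PERK, stood at 2104 and 1820 in the wildtype pair, and at 1677 and 3046 in the knockout pair. After the correction its difference was 0.41 in each pair.

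Among lectin chaperones and protein disulphide isomerases, 0 of 6 were past 1.5-fold in the wildtype pair, against 24.5% of all genes higher and 24.1% lower. In the knockout pair 3 of 6 were higher, against 16.2%. The medians were 0.16 and 0.51 in the wildtype and knockout pairs. After the correction Pdia4 was higher and P4hb lower in the wildtype pair, against 18.5% and 18.2% of all genes. In the knockout pair 2 of 6 were then higher, against 7.79%, and the medians were 0.01 and 0.21. Pdia4 (ERp72) stood at 1609 and 1904 in WT BL and WT SD, and at 1328 and 2317 in KO BL and KO SD. Its differences were 0.24 and 0.80, and after the correction 0.63 and 0.73. Pdia3 (ERp57), which works with calnexin and calreticulin on glycoproteins, stood at 10130 and 13150 in the wildtype pair and at 7000 and 11740 in the knockout pair. It was 0.75 higher in the latter, and 0.65 after the correction. For Pdia3 and Pdia4 both sleep-deprived pools lay above both baseline pools. Canx (calnexin), the membrane-bound lectin chaperone, stood at 14720 and 11220 in WT BL and WT SD, and at 9460 and 14960 in KO BL and KO SD. Its knockout difference of 0.66 became 0.11 after the correction. P4hb, the classical protein disulphide isomerase, was lowest in WT SD at 2607, with 3891 to 4254 in the other libraries. Its wildtype difference was -0.58, just within 1.5-fold, and -0.88 after the correction.

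The sensors and transcription factors divided. Atf4, the transcription factor of the PERK branch, stood at 3786 and 8541 in WT BL and WT SD, and at 3647 and 4824 in KO BL and KO SD. It was 1.17 higher in the wildtype pair (1.12 to 1.23) and 0.40 in the knockout pair (0.34 to 0.47), and 1.07 and 0.74 after the correction. Ddit3 (CHOP), a factor induced by ATF4, stood at 466 and 2167 in WT BL and WT SD, and at 626 and 813 in KO BL and KO SD. Its differences were 2.22 (2.06 to 2.37) and 0.38 (0.22 to 0.54), and after the correction 1.40 and 0.45. Both genes had their sleep-deprived pools above both baseline pools, with WT SD far on top. In the authors' deposited table for the wildtype pair, Ddit3 had a log2 ratio of 2.217 and Sdf2l1 one of 2.085, computed without replicates.

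No gene of a sensor was higher by 1.5-fold in either pair. Atf6 stood at 4126 and 2293 in WT BL and WT SD, and at 3549 and 3109 in KO BL and KO SD. Its differences were -0.85 (-0.93 to -0.77) and -0.19, and after the correction -0.27 and -0.60. Ern1, which codes for IRE1, stood at 261 and 176 in the wildtype pair and at 276 and 278 in the knockout pair. Outside the set, Eif2ak3 (PERK) stood at 941 and 577 in the wildtype pair and at 885 and 866 in the knockout pair. Its differences were -0.70 and -0.03, and after the correction -0.45 and 0.04. Xbp1, the target of IRE1, stood at 4264 and 2965 in the wildtype pair and at 4243 and 4358 in the knockout pair. Its wildtype difference was -0.52, and -0.70 after the correction. Values per gene do not separate spliced from unspliced Xbp1 RNA, nor show the cut form of ATF6.

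Genes of ER-associated degradation, which moves misfolded proteins out to the proteasome, had medians of -0.12 in the wildtype pair and -0.11 in the knockout pair. Of 6 compared, 0 were higher and 1 lower in the former, against 24.5% and 24.1% of all genes. In the latter 1 was higher and 1 lower, against 16.2% and 16.4%. After the correction 0 of 6 were past 1.5-fold in either pair. The shares over all genes were then 18.5% higher and 18.2% lower in the wildtype pair, and 7.79% and 5.34% in the knockout pair. Syvn1 (HRD1), the ubiquitin ligase of the pathway, stood at 1114 and 963 in WT BL and WT SD, and at 1679 and 976 in KO BL and KO SD. Its knockout difference of -0.78 became -0.26 after the correction. Edem1, a lectin-like factor that hands over glycoproteins for degradation, stood at 759.8 and 484 in the wildtype pair and at 569.8 and 736 in the knockout pair. Its wildtype difference went from -0.65 to 0.04 with the correction. Derl2, a channel-like membrane protein of the pathway, stood at 803 and 939.5 in the wildtype pair, and at 561 and 902 in the knockout pair (0.68, corrected 0.36). Herpud1, a scaffold of HRD1 with both ERSE-II and ATF4 letters in its promoter, kept within 1952 and 2207 in the 4 libraries. Sel1l, the partner of HRD1, lay between 4630 and 6873, and Derl1 between 2389 and 2794.

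The 4 compared outputs of ATF4 differed in sign in the wildtype pair, with Ppp1r15a above 0 and the other genes below. In that pair 0 of 4 were past 1.5-fold, against 24.5% of all genes higher and 24.1% lower. In the knockout pair 2 were lower, against 16.4%, and all 4 lay below 0 with a median of -0.71. After the correction that median was -0.47. Asns was then lower in the wildtype pair, against 18.2% of all genes, and Asns and Chac1 in the knockout pair, against 5.34%. Chac1, an enzyme that breaks down glutathione, stood at 120.5 and 108 in WT BL and WT SD, and at 209 and 88.1 in KO BL and KO SD. Its differences were -0.16 (-0.57 to 0.25) and -1.24 (-1.62 to -0.89), and after the correction -0.57 and -0.71. Asns, which makes asparagine, stood at 4613 and 3696 in WT BL and WT SD, and at 4210 and 2948 in KO BL and KO SD. Both sleep-deprived pools lay below both baseline pools for Chac1 and Asns. The corrected differences of Asns were -0.73 and -0.58 (-0.585 being the limit), and its deposited ones -0.32 and -0.51. Sesn2, a stress-induced inhibitor of mTORC1, stood at 311 and 273 in the wildtype pair, and at 529 and 281 in the knockout pair (-0.91, corrected -0.35). Ppp1r15a (GADD34), which restores translation by dephosphorylating eIF2alpha, stood at 353 and 521.5 in the wildtype pair and at 572.5 and 401 in the knockout pair. Its differences were 0.56 and -0.51, and 0.51 and -0.08 after the correction.

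Of the translocon, Sec61b, a small subunit of the channel, stood at 371 and 1490 in WT BL and WT SD, and at 398 and 481 in KO BL and KO SD. Its wildtype difference of 2.00 (1.83 to 2.19) became 0.36 after the correction, and its knockout difference of 0.27 became 0.50. It was the shortest member, with a width of 535 bp. Sec61a1, the pore-forming subunit, stood at 2020 and 1463 in the wildtype pair (-0.47, corrected -0.86) and at 2580 and 1707 in the knockout pair (-0.60, corrected -0.39). Ssr1, a translocon-associated subunit and the longest member at 9306 bp, lay between 4116 and 5547.

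Width moved with the wildtype difference across the members. Over the 33 genes the Spearman correlation of width with the difference of WT SD over WT BL was -0.55 by deposited values and -0.10 by corrected ones, where the points share the same pair of libraries. The 11 shortest members had a median of 0.50 and the 11 longest one of -0.32, which became 0.33 and -0.12. Over all genes the same correlation was -0.49. For KO SD over KO BL the members' correlation with GC content was -0.50, and -0.71 over all genes. It was -0.02 over the members after the correction. With width, the members' correlation in that pair was -0.14, and -0.34 after the correction. Over all genes these were 0.06 and -0.02. Of the members named above, Ddit3 (68 bases with Mars on the other strand and 105 with a further entry of its own symbol), Hsp90b1 (415 bases with 1810014B01Rik), Manf (146 bases with Dcaf1), Sec61a1, Dnajb9, Derl2, Syvn1, Pdia3, Pdia4, Pdia6 and Ppp1r15a share exon bases with another annotated gene in GENCODE M21, and their reads are less surely assigned. Sdf2l1, Creld2, Hspa5, Atf4, Sec61b and Asns share none.

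**Figure D3:**
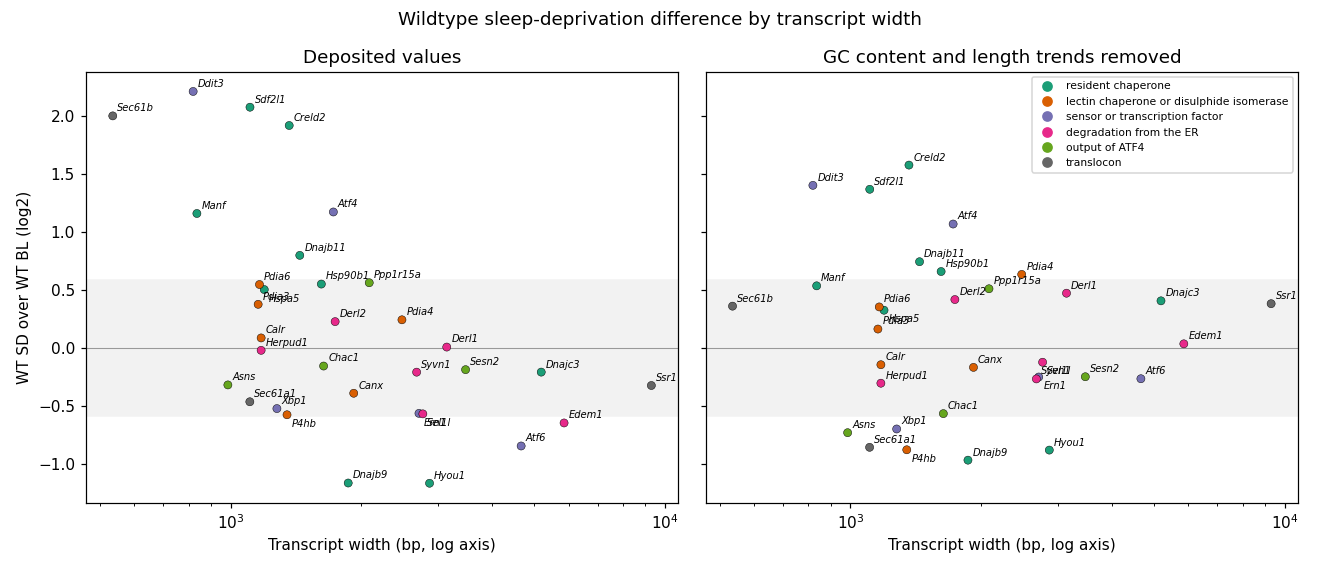
Log2 difference of WT SD over WT BL of the 33 genes against transcript width in bp (log axis), from deposited values (left) and with GC content and length trends removed (right). Colours are roles and the grey band marks differences under 1.5-fold; Sec61b, the shortest, goes from 2.00 to 0.36 and Edem1, the second longest, moves from -0.65 to 0.04, while Ddit3, Sdf2l1, Creld2 and Atf4 remain past 1.

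The genotype comparisons asked whether loss of BK changed these genes. At baseline (KO BL over WT BL) 4 members were higher, against 16.4% of all genes compared, and 2 lower, against 10.7%, with a median of -0.01 in the members and over all genes. The higher ones were Chac1 (0.79, 0.43 to 1.16), Sesn2 (0.76, 0.54 to 0.99), Ppp1r15a (0.70, 0.49 to 0.91) and Syvn1 (0.59, 0.47 to 0.71). The lower ones were Dnajb9 (-0.74, -0.87 to -0.61) and Canx (-0.64, -0.68 to -0.60). Their order followed GC content, with a Spearman correlation of 0.89 over the 33 members and 0.81 over all genes. After the correction 0 members were past 1.5-fold in either direction, against 3.19% and 3.48%, and the members ranged from -0.46 to 0.31. The chaperones Hspa5 (-0.06), Hsp90b1 (0.02), Sdf2l1 (0.04), Creld2 (-0.08), Manf (0.02) and Dnajb11 (-0.05) then differed by less than 0.1 between the baseline pools.

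After sleep deprivation (KO SD over WT SD) 6 members were higher, against 19.8% of all genes, and 5 lower, against 21.1%, with a median of 0.02 in both the members and all genes. This comparison shares its libraries with the sleep-deprivation pairs, so its values restate the levels above. Dnajb9 (1.47), Hyou1 (1.21), Dnajc3 (0.74), Ern1 (0.66), Edem1 (0.60) and P4hb (0.59) were higher in KO SD. Sec61b (-1.63), Ddit3 (-1.41), Creld2 (-0.87), Atf4 (-0.82) and Sdf2l1 (-0.76) were lower. By corrected values 5 were higher, against 14.5%, with Hyou1 (1.08), Dnajb9 (1.05), P4hb (0.90), Xbp1 (0.78) and Sec61a1 (0.62). Then 2 were lower, against 12.7%, Ddit3 (-0.72) and Atf4 (-0.68). Sdf2l1 (-0.15) and Creld2 (-0.54) were then within 1.5-fold.

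**Figure D4:**
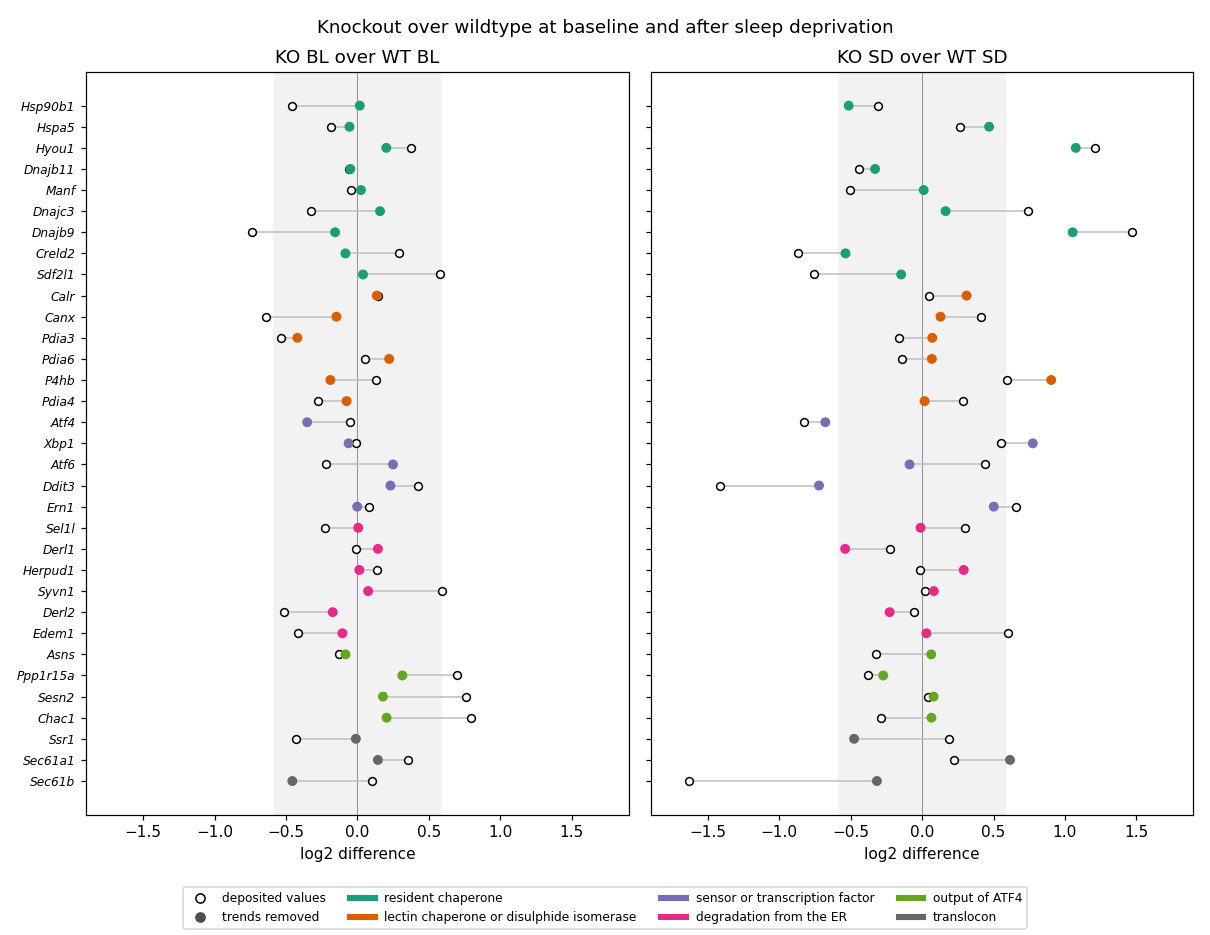
Log2 difference of knockout over wildtype for the 33 genes at baseline (left) and after sleep deprivation (right). Open points are deposited values, filled points those with GC content and length trends removed, coloured by role, and the grey band marks differences under 1.5-fold; no filled point leaves the band at baseline, and 7 do after sleep deprivation.

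The difference of the 2 sleep-deprivation responses, knockout minus wildtype, has no residual degree of freedom and was not tested. From 1 on the log2 scale, 4 members were above, against 16.6% of all genes, and 6 below, against 19.2%. Dnajb9 (2.21), Dnajc3 (1.07), Canx (1.05) and Edem1 (1.02) were above, and Ddit3 (-1.84), Sec61b (-1.73), Sdf2l1 (-1.34), Creld2 (-1.16), Chac1 (-1.08) and Ppp1r15a (-1.07) below. By corrected values 2 were above, Dnajb9 (1.21) and P4hb (1.09), against 8.19%, and 0 below, against 5.56%. The corrected difference of Ddit3 (-0.95) was just short of the limit, and those of Sdf2l1 (-0.19) and Creld2 (-0.45) were nearer to 0. That of Hspa5 was 0.45 by deposited and 0.52 by corrected values.

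Other genes of the pathway were taken from lists by role. Their counts stand against the shares over all genes given above, 24.5% higher and 24.1% lower in the wildtype pair and 16.2% and 16.4% in the knockout pair. After the correction these shares were 18.5% and 18.2%, and 7.79% and 5.34%. Higher in both pairs were 3.76% of all genes, and 3.25% after the correction. Lower in both were 4.15%, and 2.68% after it. Of 21 compared folding factors outside the set, 8 were higher and 2 lower in the wildtype pair, and 3 were higher and 3 lower in the knockout pair. After the correction these counts were 4 and 3, and 2 and 0. The prolyl isomerase genes Fkbp2 (1454, 7474, 2001 and 2141 in WT BL, WT SD, KO BL and KO SD) and Ppib (2424, 7696, 2961 and 3128) were highest in WT SD, by 2.36 and 1.67 over WT BL, and by 0.90 and 1.05 after the correction. Uggt1, the glucosyltransferase that senses misfolded glycoproteins, was lowest there at 549, with 1165 to 1448 in the other libraries, and the isomerase gene Txndc5 was lower in both pairs (-0.93 and -0.75), but after the correction past 1.5-fold in the wildtype pair alone (-0.64 and -0.50).

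Of 27 genes of translocation and glycosylation, 12 were higher and 2 lower in the wildtype pair, and 10 were higher and 0 lower in the knockout pair. After the correction these were 12 and 4, and 2 and 0. In both pairs 6 were higher, and after the correction 1, Sec61g, a small subunit of the channel like Sec61b. Sec61g stood at 217 and 549 in WT BL and WT SD, and at 170.4 and 398 in KO BL and KO SD, and its corrected differences were 0.69 and 0.78. Sec62, an accessory of the channel, was far highest in WT SD at 16420, against 6595, 4339 and 8290 in WT BL, KO BL and KO SD. Srp19 of the signal recognition particle (1.34 and 0.73) and Sec11c of signal peptidase (1.25 and 0.77) were also higher in both pairs before the correction.

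Of 23 targets of ATF4, 8 were higher and 3 lower in the wildtype pair, and 5 were higher and 3 lower in the knockout pair. The corrected counts were 4 and 2, and 2 and 1. In both pairs 1 was higher, Nupr1, a stress-induced chromatin protein, at 485 and 2016 in WT BL and WT SD, and at 471 and 748.5 in KO BL and KO SD. Its corrected differences were 1.76 and 0.92. Cebpb was higher in the wildtype pair (1.78, corrected 0.33) and lower in the knockout pair (-0.70, corrected 0.10), and Cth and Slc7a11, of cysteine supply, were higher in the knockout pair by 1.10 each (corrected 0.66 and 0.45).

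Of 20 degradation factors, 3 were higher and 4 lower in the wildtype pair, and 3 were higher and 1 lower in the knockout pair. Corrected, they were 2 and 4, and 1 and 0. Svip, an inhibitor of the degradation complex, was higher in both pairs after the correction (0.86 and 0.61), with deposited differences of 0.44 and 1.22. Edem3 (-0.62 and 0.98) and Os9 (0.59 and -0.71) went opposite ways in the pairs, and Aup1 was higher in the wildtype pair (1.13 and -0.24). Corrected, the differences were 0.02 and 0.48 for Edem3, 0.82 and -0.27 for Os9, and 0.43 and 0.37 for Aup1, so that Os9 in the wildtype pair was the 1 value past 1.5-fold. Of 16 other sensors and regulators, 2 were higher and 4 lower in each pair, and 0 in both. By corrected values they were 1 and 1 in the wildtype pair, and 0 and 0 in the knockout pair. Bax, a regulator of cell death that binds IRE1, stood at 407 and 1699 in WT BL and WT SD, and at 823 and 572 in KO BL and KO SD, with a wildtype difference of 2.06, and 0.81 after the correction. Ppp1r15b, the constitutive counterpart of Ppp1r15a, was lowest in WT SD at 1287, with 1644 to 2280 in the other libraries. Its wildtype difference of -0.74 became -0.12 after the correction. Mbtps1, the protease that cuts ATF6, was lower in the knockout pair (-0.65), as was Creb3l1, a relative of ATF6 (-0.76), both within 1.5-fold after the correction.

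Markers of other cell types differed between the same libraries. The summed level of 5 oligodendrocyte markers was 34346 and 67836 normalised counts in WT BL and WT SD, and 59267 and 60584 in KO BL and KO SD. In the same order, that of 5 choroid plexus markers was 309.9, 137, 304 and 717. Only 3 of these markers were high enough to be compared. In the knockout pair 1 of them was higher and 2 lower, so the higher sum in KO SD was not shared by all. In the wildtype pair 0 were higher and 2 lower. The sum of 5 red blood cell genes was 46179, 38351, 42136 and 12182. That of 6 neuronal markers was 297666, 210236, 253125 and 228702, with 0 higher and 2 lower in each pair. The summed astrocyte markers ranged from 35223 to 59065, highest in KO SD. No marker of these lists was at 0 in any library. Mitochondrial transcripts made up 13.4%, 13.5%, 12.7% and 19.4% of the normalised counts. The part of cell makeup in the differences of Hspa5, Sdf2l1, Creld2 and the other members was not tested.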

How the data were processed

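Members and gene lists were chosen with earlier results of these data known. The expression signal in the authors' deposited tables is, per the file headers and values, an estimated count per gene divided by 1 factor per library. The submitters' processing notes name RSEM 1.2.19, edgeR and the build mm10 (GRCm38). Not given in the sources used here are the aligner and the role of each tool. The authors' deposited log2 ratios were turned round to sleep-deprived over baseline and knockout over wildtype. Their deposited p-values and FDR values come from single libraries and are not given here. GC fraction and transcript width are as deposited by the authors. The 4 tables held the same library values in the columns used.

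The lowest values put 1 read at 1.15, 1.11, 1.25 and 0.878 normalised counts in WT BL, WT SD, KO BL and KO SD. Values are not whole reads, so no count model was run. Differences used log2(value + 1) with a mean of at least 50. To correct, each library's deviation from the 4-library mean was modelled on log10 width and GC content (symmetric loess, degree 2, span 0.3) and the modelled part taken off. limma 3.58.1 (R 4.3.3) with trend fitted the additive model. Its procedure was also run on simulated data with the same change in both pairs, which does not show its behaviour where the pairs differ. With deposited values the prior degrees of freedom of limma were infinite, so each variance came from the trend over all genes. The standard errors then do not measure a gene's own residual. With corrected values the prior degrees of freedom were 6.28, so the 2 fits rest on different error estimates. Intervals are Clopper-Pearson, from scipy 1.17.1.

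Named were members past 1.5-fold in both pairs, the same or opposite ways, up to 3 a role by largest difference, and up to 4 genes of each other list. The other members, and Eif2ak3, were named after their values were seen. Coordinates are 1-based on GRCm38.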

Additional observations from a re-analysis of the deposited data

Results flagged for a closer look

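Dnajb9 was lower in the sleep-deprived wildtype pool and higher in the sleep-deprived knockout pool, each past 1.5-fold, so that its responses differed by 2.21 on the log2 scale (knockout minus wildtype). The values were 1654 and 736 normalised counts in WT BL and WT SD, and 990.4 and 2044 in KO BL and KO SD. With 1 library a group the difference was not tested. After the correction it was 1.21, with -0.97 in the wildtype and 0.24 in the knockout pair. Dnajb9 shares 14 exon bases with Mir5627 on the other strand.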

How the results depend on the processing

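With a pseudocount of 10, the counts of members did not change, and all 43 differences past 1.5-fold stayed past it. With each library at the same total, where the all-gene median went from -0.04 to -0.20 in the wildtype pair and from -0.04 to -0.12 in the knockout pair, 41 of the 43 remained, 9 members were lower in the wildtype pair and 1 was lower in both pairs. Without the filter, 5 members were higher at baseline in the knockout, and the other counts did not change.

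Removing the GC content and length trends left 18 of the 43. It gave 6 members higher in the knockout pair, 0 higher and 0 lower at baseline, 2 lower in KO SD over WT SD, 1 lower in both pairs, and 2 above and 0 below for the difference of responses. Edem1 changed sign in the wildtype pair, to 0.0352. The alternative removes those trends by construction, and no further cause was tested.

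At 2-fold, 6 members were higher and 2 lower in the wildtype pair, 1 higher and 1 lower in the knockout pair, 0 and 0 at baseline, 2 and 2 in KO SD over WT SD, and 0 higher in both pairs. At 1.5-fold, 7 members were above and 8 below for the difference of responses. The shares of all genes past these alternative thresholds were not counted, so these member counts cannot be called high or low. No paired analysis was possible because each group is 1 pooled library and the labels give no replicate numbers. Each sleep-deprivation pair compares within a genotype, and the additive fit, with genotype as a term, averages the differences of the pairs. With 1 library a group no library could be left out of a pair. Of the compared members Chac1 had the fewest estimated reads, and the counting interval of its wildtype difference (-0.57 to 0.25) spans 0.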

Other observations

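Genes outside the set that hold the ERSE letters in their promoter were compared as a description. Of 28 such genes 9 reached the mean of 50 normalised counts, with Ero1b, an oxidase that recharges disulphide isomerases, found under its older symbol Ero1lb. In the wildtype pair 1 was higher and 1 lower, and in the knockout pair 2 were higher and 1 lower, with medians of -0.13 and -0.03. After the correction these medians were 0.16 and -0.07. The 8 compared members with the letters had medians of 0.30 and 0.68 in the same pairs, and of 0.34 and 0.16 after the correction.

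The match of Creld2, at chromosome 15, bases 88819520 to 88819538, is also in the promoter window of Alg12, a mannosyltransferase gene of glycan assembly read in the opposite direction. Alg12 stood at 315 and 107 in WT BL and WT SD, and at 389.5 and 254 in KO BL and KO SD, so that it was lower in both pairs (-1.55 and -0.61, corrected -1.63 and -0.34). Creld2 was higher in both pairs, by 1.92 and 0.76.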
